A study of Mus musculus with 12 samples.

Results

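The transcripts of 35 genes for glutamate receptor subunits and the auxiliary subunits that travel with them were followed through the differentiation of mouse ANS cells, out of 22609 genes in the count tables. The 35 genes were picked by name from their families, with earlier results of these data known, and Shisa9 is among them because it has the largest rise from T0. They fall into 4 AMPA, 5 kainate, 7 NMDA and 1 delta receptor subunit, 7 metabotropic receptors, 6 TARPs (transmembrane AMPA receptor regulatory proteins), 3 other AMPA receptor auxiliary subunits and 2 kainate receptor auxiliary subunits.

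ANS cells are adherent neural stem cells, derived here from the brain of normal mouse embryos of E14.5 and grown as a culture that can be driven towards GABAergic neurons. PolyA RNA was sequenced in 12 libraries, with 3 each for T0 and T1, 4 for T2 and 2 for T3. At T0 the cells proliferated in growth medium with 1% N2, 20 ng/ml hrFGF2 and 20 ng/ml hrEGF. At T1 they had spent 2 days in medium D1 (0.5% N2 and 1% B27, with hrFGF at 10 ng/ml and hrEGF at 2 ng/ml), when proliferation is labelled as reduced. At T2 they had then spent 2 days, and at T3 10 days, in medium B, which holds 0.5% N2, 1% B27, 10 ng/ml FGF-2 and 20 ng/ml BDNF and no EGF. The titles count the 10 days from the change to medium B, but they may also run from T2. Every library comes from unmodified cells of this kind, and FGF2 and N2 were present at every time point. The labels call T3 overt differentiation and GAD+. The sources call the libraries biological replicates without saying whether these were separate derivations or separate cultures, so the spread between libraries may be that between cultures of 1 line.

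Glutamate acts through ion channels and through G protein-coupled receptors. AMPA, kainate and NMDA receptors are tetrameric channels built from subunits of their own family, and the subunit mix sets conductance, kinetics and calcium permeability, while TARPs, cornichons, Shisa9 and the Neto proteins bind the channels and alter their trafficking and gating. Metabotropic receptors signal through Gq, as Grm5 does, or through Gi/o. In the developing brain these genes are read not only in neurons but also in radial glia, neural progenitors, astrocytes and oligodendrocyte precursors.

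Between 8910724 and 16631614 reads were counted on genes in a library. T0 replicate 3 stood apart from the other T0 libraries, with a chi-square per gene of 96.4 and 99.9 against them where all other replicate pairs gave 3.17 to 32.4, and it had 7 counts of the astrocyte gene Gfap against 1958 and 2144 in T0 replicates 1 and 2. For most genes named, fold changes from T0 are therefore given with and without it. Levels are given as CPM (reads counted on a gene per 1000000 on all genes, TMM scaled). Summed proliferation markers were at 1670 to 2719 CPM at T0 and at 143 to 273 CPM at T1, and all 8 passed the test as lower at T1 and at T2. They were at 177 to 336 CPM at T2 and at 524 to 937 CPM at T3, where 1 of 8, Top2a, passed as lower than T0, and 3 did without T0 replicate 3. Summed pan-neuronal markers were at 902 to 969 CPM in T0 libraries and at 2039 to 2585, 2003 to 2557 and 1688 to 2719 CPM in those of T1, T2 and T3. Most of that sum was Mtap2 alone, at 879 to 921 CPM at T0 and 1309 to 2169 CPM later. In bulk RNA a change in the number of cells that express a gene cannot be told apart from a change in the RNA per cell.

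Of the 35 genes, 23 reached a mean of 1 CPM at some time point. In 8 others there were at most 3 counts in every library: Gria1, Grin2b, Grm4, Grm6, Grm7, Grm8, Cacng2 and Cacng3, of which Grm8 and Cacng3 had 0 counts in all 12. These include GluA1, GluN2B and the prototypical TARP stargazin (Cacng2), which are abundant in mature excitatory synapses. The remaining 4, Grin2a, Grin2c, Grid1 and Grm2, were in between and stayed under 1 CPM on average. Levels of different genes were compared only per length, on the deposited FPKM values and, for shares and sums of a family, also on CPM per kilobase of exon. The exon lengths come from GENCODE vM1, while the paper names an iGenomes annotation for its gene-level analysis, so counted and measured exons may differ. At T0 Cacng8, for example, held 4.78% of the TARP sum on FPKM and 15.6% on CPM per kilobase. On FPKM the TARP gene Cacng4 was the most abundant member at every time point, with a mean of 66.5 ± 11.7 FPKM (SD, n = 3) at T0 and 99.1 ± 14.9 (n = 3), 99.7 ± 3.90 (n = 4) and 89.6 ± 44.7 (n = 2) at T1, T2 and T3. At T0 it was followed by Neto2 with 44.7 ± 4.35, Cnih2 with 34.6 ± 12.9, Cacng7 with 24.8 ± 7.78, Grik5 with 23.5 ± 4.37 and Grm5 with 18.3 ± 1.01 FPKM, and from Neto2 to Grik5 each gene in this order lay within 1 SD of the next. From T1 onwards Grm3 came next after Cacng4, with 53.3 ± 7.54, 46.9 ± 8.41 and 37.3 ± 14.9 FPKM, ahead of Cacng7 at 40.5 ± 1.07, 40.5 ± 2.97 and 34.9 ± 12.9. Grm3 and Cacng7 did not differ beyond their spread at T2 and T3. The order of these genes depends on the scale. On CPM per kilobase the TARPs together summed to 36.8 ± 2.66 at T0, with Cacng4 at 42.8%. Neto1 and Neto2 summed to 71.6 ± 8.97, with Neto2 at 88.2%. At T1 and T2 the TARPs summed to 50.8 ± 1.43 and 56.3 ± 1.63, with Cacng4 at 45.6% and 45.3%. The metabotropic receptors summed to 77.8 ± 12.2 and 73.2 ± 16.0, with Grm3 at 91.8% and 90.3%. Cacng4 therefore did not lead on that scale at T0, T1 or T2.

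**Figure D1:**
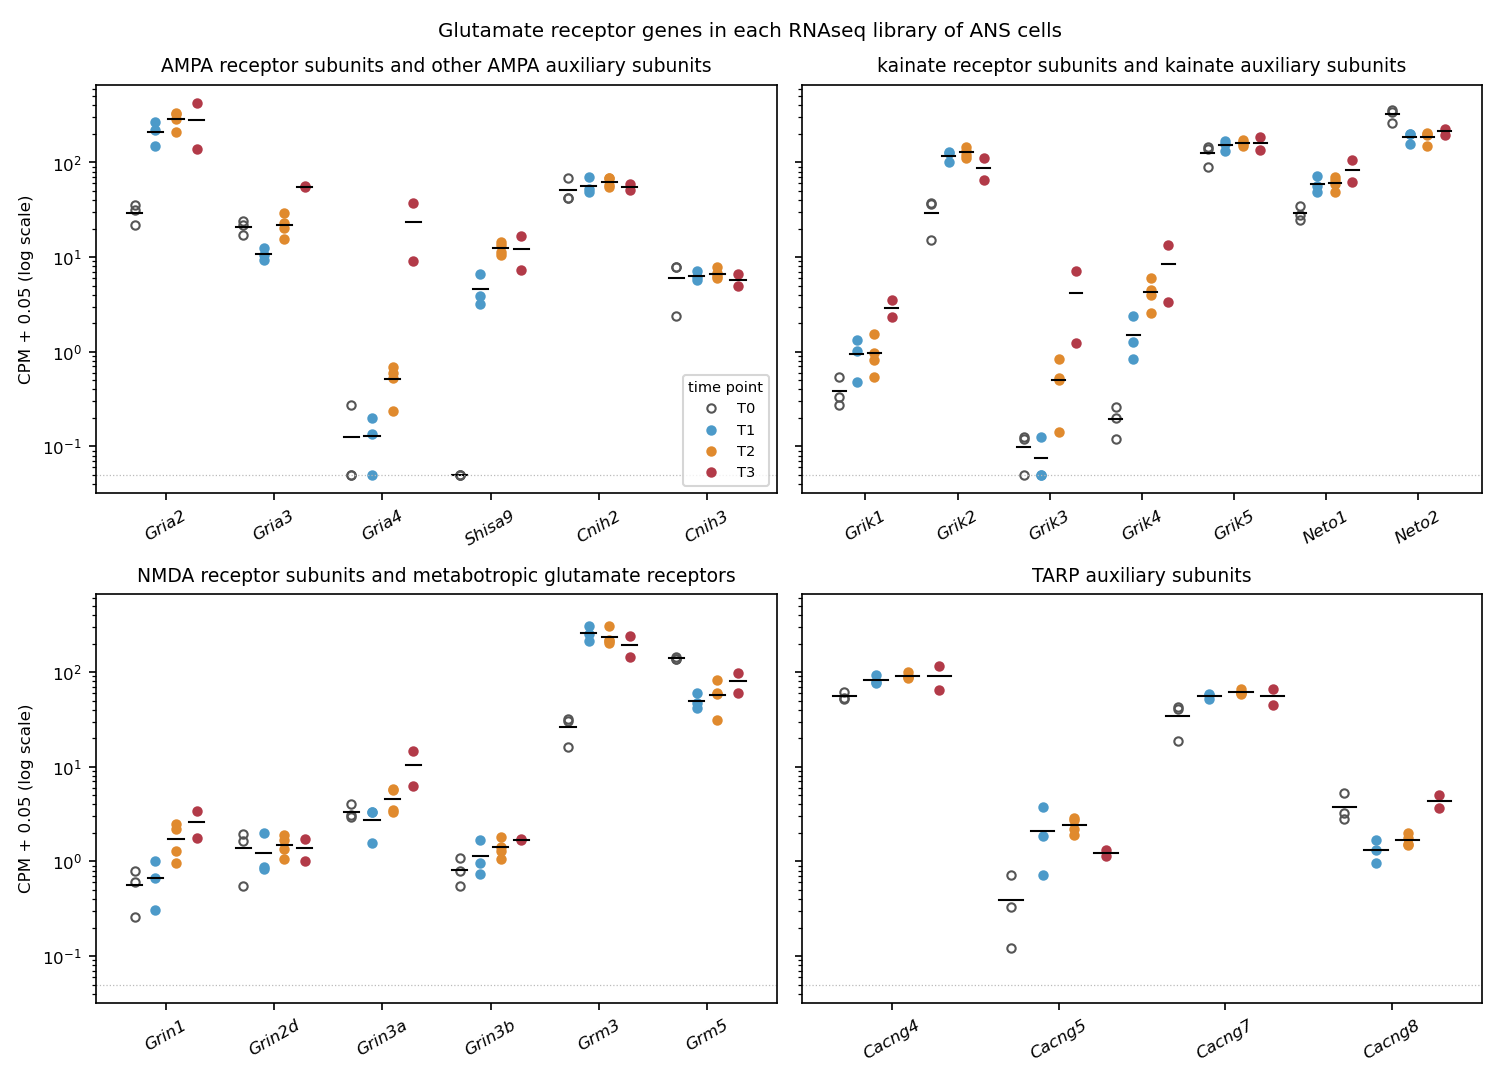
CPM plus 0.05 on a log axis for the 23 genes that reach a mean of 1 CPM, with 1 point per library and a black line at the mean of each time point. Gria2, Grm3 and Grik2 lie far above T0 from T1 on, Shisa9 sits on the dotted line of 0 counts at T0, and Gria4 and Grik3 are near it until T3.

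Among the AMPA subunits, Gria2 encodes GluA2, the subunit whose Q/R site is recoded by RNA editing and makes the channel nearly impermeable to calcium. Its level was 35.9, 31.0 and 21.6 CPM in T0 replicates 1 to 3, 219.9, 265 and 149 CPM in T1 replicates 1 to 3, 321, 336, 289 and 208 CPM in T2 replicates 1 to 4, and 424 and 139.8 CPM in T3 replicates 1 and 4. No library of a later time point overlapped with T0, and the T3 libraries lay on either side of all T2 libraries. The log2 fold change from T0 was 2.84 ± 0.27 (SE), 3.31 ± 0.24 and 3.27 ± 0.49 at T1, T2 and T3, and 2.66 ± 0.23, 3.12 ± 0.21 and 3.09 ± 0.55 without T0 replicate 3. The gene lies at chr3:80488858-80606713 (mm9).

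Gria3 (GluA3, chrX:38754031-39031778) took another course. The T0 libraries held 21.7, 23.9 and 17.3 CPM, the T1 libraries 10.6, 12.5 and 9.33 CPM, the T2 libraries 29.2, 20.1, 22.8 and 15.7 CPM, and the T3 libraries 56.8 and 54.4 CPM. T1 lay below T0 in every library, T2 overlapped with T0, and both T3 libraries were above all others. The log2 fold change from T0 was -0.96 ± 0.19, 0.08 ± 0.22 and 1.42 ± 0.20 at T1, T2 and T3 (-1.08 ± 0.14, -0.05 ± 0.21 and 1.30 ± 0.13 without T0 replicate 3).

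Gria4 (GluA4, chr9:4417899-4796234), a subunit of fast-gating AMPA receptors, was nearly silent until the last time point. It had 3, 0 and 0 counts at T0, 1, 2 and 0 at T1, 5, 2, 7 and 9 at T2, and 450 and 85 at T3, or 37.7 and 9.15 CPM at T3. The pooled ratio of T3 to T0 was 351 with an exact 95% interval from 120 to 1710, which covers counting error only. Gria1 (GluA1) had 3 counts in T3 replicate 4, 1 in T2 replicate 4 and 0 elsewhere.

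The Q/R site is where the RNA of Gria2 is recoded, so the coding bases around it are shown for the 4 genes. They come from the NCBIM37 genome (mm9) and the GENCODE vM1 transcripts. Bases run 5′ to 3′ on the coding strand, with the Q/R codon in capitals. Editing was not measured here, and the counts do not separate edited from unedited RNA.
Gria1 (chr11:57056584-57056613, plus strand, exon 11 of 16): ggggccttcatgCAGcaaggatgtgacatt
Gria2 (chr3:80510818-80510847, minus strand, exon 11 of 17): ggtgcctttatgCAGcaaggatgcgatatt
Gria3 (chrX:38963430-38963459, plus strand, exon 11 of 16): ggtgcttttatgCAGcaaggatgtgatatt
Gria4 (chr9:4464122-4464151, minus strand, exon 12 of 17): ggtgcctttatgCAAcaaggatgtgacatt
All 4 genomic codons encode glutamine. Over these 30 bases Gria1, Gria3 and Gria4 differ from Gria2 at 4, 2 and 3 positions.

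On the FPKM scale the AMPA subunits summed to 8.35 ± 1.44 at T0 and to 21.7 ± 4.68, 28.5 ± 6.15 and 36.3 ± 25.2 at T1, T2 and T3. Gria2 made up 34.7% ± 9.14 of the sum at T0 and 89.6% ± 4.58, 88.3% ± 2.08 and 63.0% ± 7.19 at T1, T2 and T3. Gria3 made up 65.1% ± 9.27 at T0 and 10.3% ± 4.67, 11.4% ± 2.04 and 29.5% ± 9.84 later, and Gria4 reached 7.46% ± 2.74 at T3. The larger share of Gria3 at T0 depends on the scale. On CPM per kilobase of merged exons, a scale added after the data were seen, Gria2 held 66.1% at T0 and 96.4%, 94.7% and 79.0% at T1, T2 and T3, with Gria3 at 33.7% at T0. The ratio of FPKM to CPM for Gria3 differed by 3.47 times between libraries, and in T0 replicate 3 Gria3 had the highest FPKM (7.41) and the lowest CPM of the T0 libraries. On both scales the share of Gria2 was lower at T0 than at T1 and T2 in every library, and lower at T3 than at T1 and T2.

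**Figure D2:**
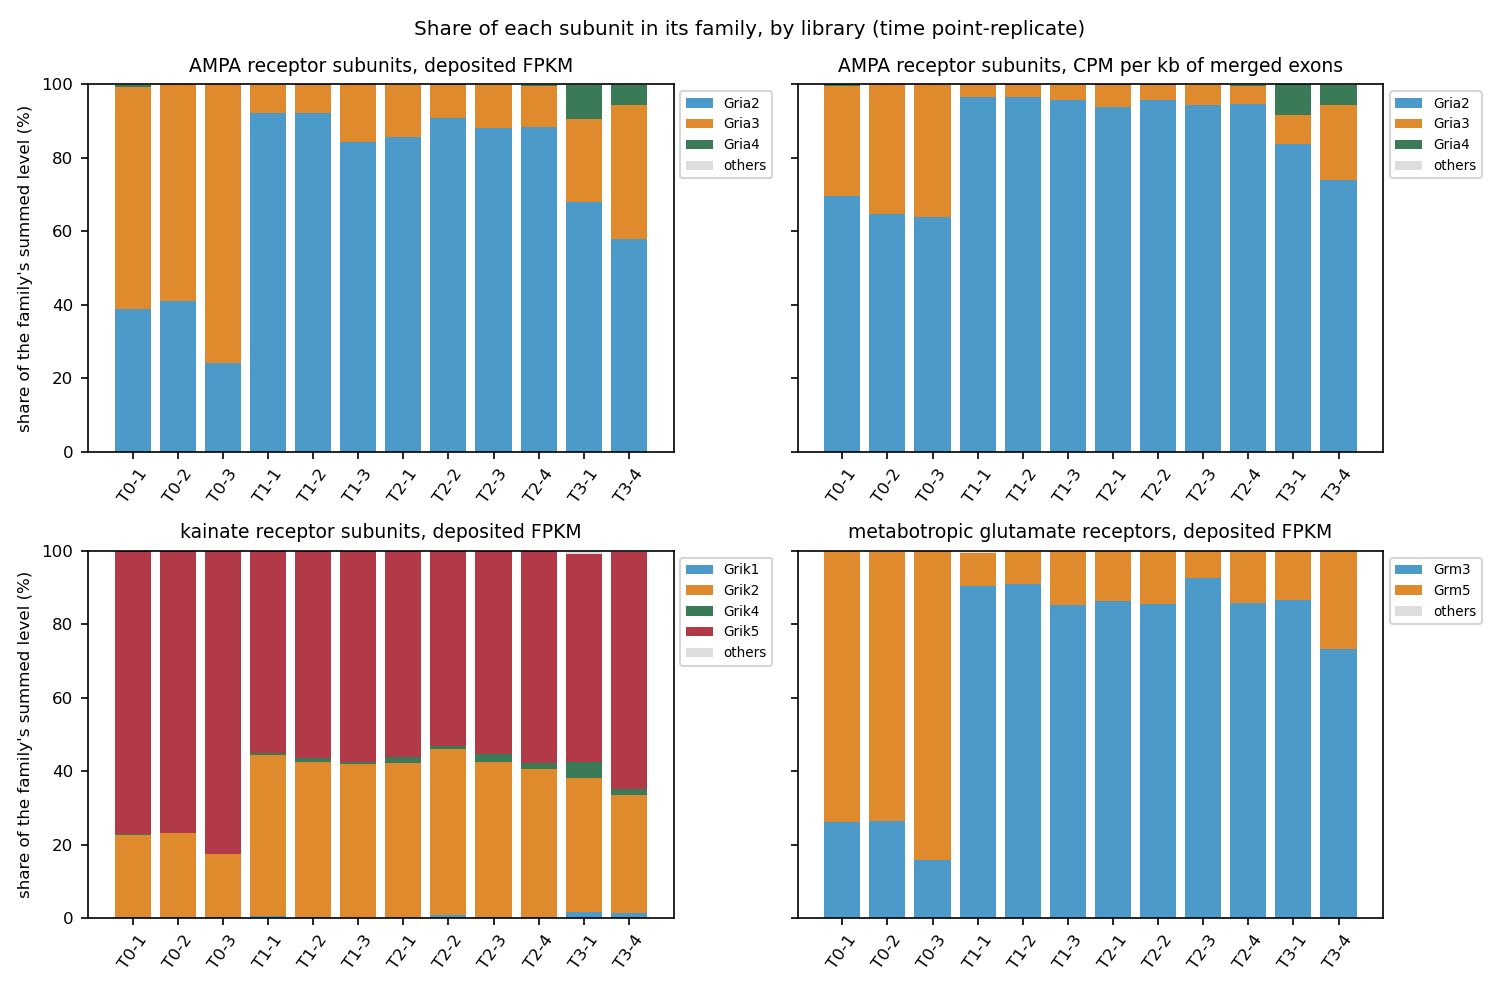
Share of each subunit in the summed level of its family (percent, vertical axis) in each library, for AMPA subunits on both length-scaled measures and for kainate and metabotropic receptors on FPKM. Gria2 takes over from Gria3 after T0 on FPKM but leads in every library on CPM per kilobase, and Grm5 gives way to Grm3 after T0.

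Among the AMPA receptor auxiliary subunits, Shisa9 (CKAMP44, which slows recovery of the channel from desensitisation) was chosen for its rise from T0, and its values are therefore a description only. The gene (chr16:11984674-12267896) had 0 counts in all 3 T0 libraries, 45, 89 and 52 at T1, 118, 114, 160 and 218 at T2, and 201 and 67 at T3. In CPM these were 3.88, 6.65 and 3.17 at T1, 11.3, 10.6, 14.6 and 13.4 at T2 and 16.8 and 7.21 at T3. All T2 libraries lay above all T1 libraries, and T3 replicate 4 fell between the T1 and T2 ranges. With the floor set at 3 counts in each T0 library, the T1, T2 and T3 levels were at least 21.2-fold, 57.8-fold and 55.8-fold higher. Its mean FPKM was 0.916 ± 0.540, 1.67 ± 0.427 and 1.71 ± 1.57 at T1, T2 and T3, far under that of Cacng4 on this scale. The ratio of FPKM to CPM for Shisa9 differed by 2.80 times between libraries. In CPM the T2 means were 12.4 for Shisa9 and 91.2 for Cacng4. Their merged exons span 1275 and 3575 bp, so the gap per length was much smaller on CPM.

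The TARPs Cacng4 and Cacng7 (γ-4 and γ-7) were high throughout. Cacng4 (chr11:107593671-107657296) was at 52.1, 53.5 and 62.1 CPM at T0, 78.4, 77.0 and 93.5 at T1, 86.1, 100.1, 88.7 and 89.8 at T2 and 115 and 65.0 at T3, with no overlap with T0. Its log2 fold change from T0 was 0.57 ± 0.13, 0.72 ± 0.11 and 0.70 ± 0.26 at T1, T2 and T3, and 0.65 ± 0.11, 0.80 ± 0.09 and 0.79 ± 0.28 without T0 replicate 3. Cacng7 (chr7:3333055-3367810) was at 43.2, 40.5 and 18.8 CPM at T0, 58.1, 56.7 and 52.1 at T1, 61.0, 57.9, 60.0 and 65.9 at T2 and 65.9 and 44.5 at T3. T0 replicate 3 was far below the other T0 libraries here, and the log2 fold change at T2 was 0.86 ± 0.26 with it and 0.57 ± 0.09 without it.

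Cacng8 (γ-8, chr7:3394567-3415366), the neighbour of Cacng7 and a TARP best known from hippocampal neurons, moved the other way at first. It was at 2.78, 3.21 and 5.22 CPM at T0, 1.64, 1.27 and 0.915 at T1, 1.43, 1.94, 1.73 and 1.47 at T2 and 3.60 and 4.95 at T3. T1 and T2 lay below T0 in every library and T3 overlapped with T0. The log2 fold change was -1.57 ± 0.37, -1.17 ± 0.29 and 0.21 ± 0.41 at T1, T2 and T3 (-1.26 ± 0.29, -0.85 ± 0.24 and 0.52 ± 0.30 without T0 replicate 3). Cacng5 (γ-5, chr11:107735919-107776369) had 9, 4 and 1 counts at T0, 21, 9 and 61 at T1, 28, 20, 31 and 35 at T2 and 15 and 10 at T3. T1 spanned the widest range and overlapped with T0 in counts, with a log2 fold change at T2 of 2.80 ± 0.52, or 2.32 ± 0.41 without T0 replicate 3. On FPKM, Cacng4 took 69.0% ± 7.69, 69.8% ± 3.64, 69.9% ± 2.02 and 68.5% ± 4.14 of the TARP sum at T0 to T3. On CPM per kilobase it took 42.8%, 45.6%, 45.3% and 43.5%, with Cacng7 at 41.3%, 49.6%, 49.2% and 43.8%, so which of both led depends on the scale.

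The cornichons Cnih2 and Cnih3, which help AMPA receptors leave the endoplasmic reticulum, overlapped between T0 and each later time point. Cnih2 was at 42.5, 42.1 and 67.8 CPM in the T0 libraries, 51.9, 48.2 and 69.9 in those of T1, 55.3, 57.5, 67.9 and 68.4 in those of T2 and 51.0 and 59.6 in those of T3. Its log2 fold change at T2 was 0.31 ± 0.19, and 0.58 ± 0.11 without T0 replicate 3, whose level was close to the top of the later range. Cnih3 was at 7.80, 7.88 and 2.33 CPM in the T0 libraries, 5.69, 6.05 and 7.07 in those of T1, 6.21, 6.67, 6.01 and 7.74 in those of T2 and 6.53 and 4.95 in those of T3. Its log2 fold change at T2 was 0.17 ± 0.38, and -0.21 ± 0.16 without T0 replicate 3.

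Of the kainate subunits, Grik5 (GluK5, a high-affinity subunit that needs a partner from GluK1 to GluK3 to make a channel) was high at every time point. It was at 146, 138 and 89.3 CPM in the T0 libraries, 158, 170.4 and 131 in those of T1, 157, 166, 173 and 150.2 in those of T2 and 184 and 135 in those of T3. T1 and T3 overlapped with T0 while T2 lay just above it, with a log2 fold change from T0 of 0.30 ± 0.20, 0.39 ± 0.17 and 0.37 ± 0.27 at T1, T2 and T3. These were 0.11 ± 0.11, 0.20 ± 0.09 and 0.18 ± 0.17 without T0 replicate 3. Grik2 (GluK2, chr10:48819266-49508572), a possible partner, was at 37.0, 36.0 and 15.2 CPM at T0, 127, 128 and 99.9 at T1, 120.1, 144, 134 and 113 at T2 and 111 and 64.5 at T3. All later libraries were above T0. The log2 fold change was 2.00 ± 0.33, 2.14 ± 0.29 and 1.59 ± 0.44 at T1, T2 and T3, and 1.69 ± 0.13, 1.82 ± 0.12 and 1.28 ± 0.27 without T0 replicate 3. In FPKM, Grik5 accounted for 78.8% ± 3.16 of the kainate sum at T0 and for 56.4% ± 1.24, 55.4% ± 1.90 and 60.5% ± 5.72 at T1, T2 and T3. Grik2 accounted for 20.7% ± 3.18, 42.6% ± 0.973, 42.4% ± 2.06 and 34.3% ± 3.08. On CPM per kilobase the Grik5 share was 90.1% at T0 and 73.0%, 71.9% and 76.3% later, so Grik5 led and the share of Grik2 was higher after T0 on both scales.

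The other kainate subunits were scarce. Grik4 (GluK4, the second high-affinity subunit, chr9:42326218-42752576) had 2, 3 and 1 counts at T0, 14, 31 and 13 at T1, 46, 27, 65 and 64 at T2 and 159 and 31 at T3. No later library overlapped with T0, and the log2 fold change was 3.23 ± 0.63, 4.79 ± 0.49 and 5.79 ± 0.80 at T1, T2 and T3 (2.91 ± 0.69, 4.47 ± 0.53 and 5.48 ± 0.95 without T0 replicate 3), from only 6 reads in all at T0. Grik1 (GluK1) was at 0.225, 0.488 and 0.282 CPM at T0, 1.29, 0.971 and 0.427 at T1, 0.764, 1.48, 0.910 and 0.491 at T2 and 3.43 and 2.26 at T3. Only the T3 libraries stood clear of all others, with a log2 fold change from T0 of 3.08 ± 0.51 (2.98 ± 0.50 without T0 replicate 3). Grik3 (GluK3) had 1, 1 and 0 counts at T0, 0, 1 and 0 at T1, 5, 1, 5 and 13 at T2 and 85 and 11 at T3. Its pooled ratio of T3 to T0 was 94.6, with an exact 95% interval from 25.5 to 792 for counting error only.

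The kainate receptor auxiliary genes went in opposite directions. Neto1 (chr18:86564344-86671289), whose product also binds NMDA receptors, was at 24.4, 27.8 and 34.8 CPM at T0, 56.7, 72.7 and 48.6 at T1, 65.2, 69.5, 59.4 and 48.2 at T2 and 106 and 61.9 at T3. Neto2 (chr8:88161136-88224653) was at 345, 360.5 and 263 CPM at T0, 202, 202 and 155 at T1, 199, 196, 203 and 150.3 at T2 and 228 and 197 at T3. Every later library was above T0 for Neto1 and below T0 for Neto2. Their log2 fold changes from T0 were 1.03 ± 0.20 and -0.80 ± 0.17 at T1, 1.08 ± 0.18 and -0.77 ± 0.15 at T2, and 1.55 ± 0.28 and -0.59 ± 0.20 at T3. Without T0 replicate 3 these were 1.18 ± 0.17 and -0.92 ± 0.12, 1.23 ± 0.15 and -0.90 ± 0.12, and 1.70 ± 0.28 and -0.71 ± 0.12. In FPKM, Neto2 remained the more abundant of both, with 87.9% ± 3.85 of their sum at T0 and 67.6% ± 2.64 and 66.9% ± 1.69 at T1 and T2, and 58.9% and 67.4% in the T3 libraries.

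NMDA receptor subunits were low throughout, with a summed level of 1.76 ± 0.397 FPKM at T0 and 1.56 ± 0.204, 2.20 ± 0.195 and 4.28 ± 0.331 at T1, T2 and T3. Grin1 (GluN1), the subunit that every NMDA receptor needs, was at 0.750, 0.558 and 0.212 CPM at T0, 0.259, 0.971 and 0.610 at T1, 1.24, 2.41, 0.910 and 2.15 at T2 and 3.35 and 1.72 at T3. T2 and T3 were above T0 in every library, and the log2 fold change was 1.74 ± 0.51 at T2 and 2.33 ± 0.62 at T3 (1.39 ± 0.47 and 1.98 ± 0.49 without T0 replicate 3). The deposited FPKM of Grin1 does not follow its counts closely, since the ratio of FPKM to CPM differed by 3.92 times between libraries, and for Grin3b by 13.0 times. The glutamate-binding GluN2 subunits were led on FPKM by Grin2d, with means of 0.171 ± 0.0784, 0.154 ± 0.0658, 0.170 ± 0.0324 and 0.205 ± 0.0922 at T0 to T3 and no other above 0.0964. In counts per library size Grin2d was at 1.88, 1.60 and 0.494 CPM at T0, 0.776, 0.822 and 1.95 at T1, 1.62, 1.30, 1.00 and 1.84 at T2 and 1.68 and 0.969 at T3, all overlapping. In this group Grin2a had at most 9, Grin2b at most 3 and Grin2c at most 5 counts in any library. Grin3a (GluN3A), a glycine-binding subunit of juvenile receptors, was at 3.08, 3.98 and 2.89 CPM at T0, 3.28, 3.29 and 1.52 at T1, 5.73, 3.24, 5.64 and 3.44 at T2 and 14.7 and 6.24 at T3. T3 lay above all other libraries, with a log2 fold change from T0 of 1.68 ± 0.43 (1.60 ± 0.46 without T0 replicate 3). Grin3b was at 0.750, 1.05 and 0.494 CPM at T0, 0.690, 1.64 and 0.915 at T1, 1.24, 1.02, 1.36 and 1.78 at T2 and 1.68 and 1.61 at T3, with T3 above T0 by 1.11 ± 0.48 on the log2 scale, or 0.88 ± 0.37 without T0 replicate 3. The delta receptor gene Grid1 had at most 3 counts in each library up to T2 and 12 and 6 at T3.

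Metabotropic receptors were represented by Grm5 (mGlu5, coupled to Gq) and Grm3 (mGlu3, coupled to Gi/o), both of which are read in glia and in neurons. Grm3 (chr5:9485236-9725352) was at 30.2, 31.9 and 15.9 CPM at T0, 251, 305 and 212 at T1, 218, 309.6, 203 and 213 at T2 and 239 and 145 at T3. Grm5 (chr7:94750952-95283417) was at 137, 137 and 145 CPM at T0, 42.1, 46.9 and 60.7 at T1, 58.9, 81.7, 30.8 and 59.9 at T2 and 60.8 and 98.8 at T3. Every later library was above T0 for Grm3 and below T0 for Grm5. The log2 fold changes from T0 were 3.30 ± 0.29, 3.20 ± 0.28 and 2.90 ± 0.37 for Grm3 and -1.49 ± 0.16, -1.26 ± 0.27 and -0.79 ± 0.24 for Grm5 at T1, T2 and T3. Without T0 replicate 3 they were 3.04 ± 0.16, 2.94 ± 0.19 and 2.65 ± 0.26 for Grm3 and -1.46 ± 0.14, -1.23 ± 0.26 and -0.77 ± 0.24 for Grm5. In FPKM, Grm5 held 77.2% ± 6.18 of the metabotropic sum at T0 and Grm3 22.8% ± 6.13, while Grm3 held 89.0% ± 3.20, 87.6% ± 3.37 and 80.0% ± 9.41 at T1, T2 and T3. On CPM per kilobase Grm3 held 29.1% at T0 and 91.8%, 90.3% and 83.2% later. Grm2, the other Gi/o receptor closest to Grm3, had at most 6 counts, and the group III genes Grm4, Grm6, Grm7 and Grm8 at most 3.

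**Figure D3:**
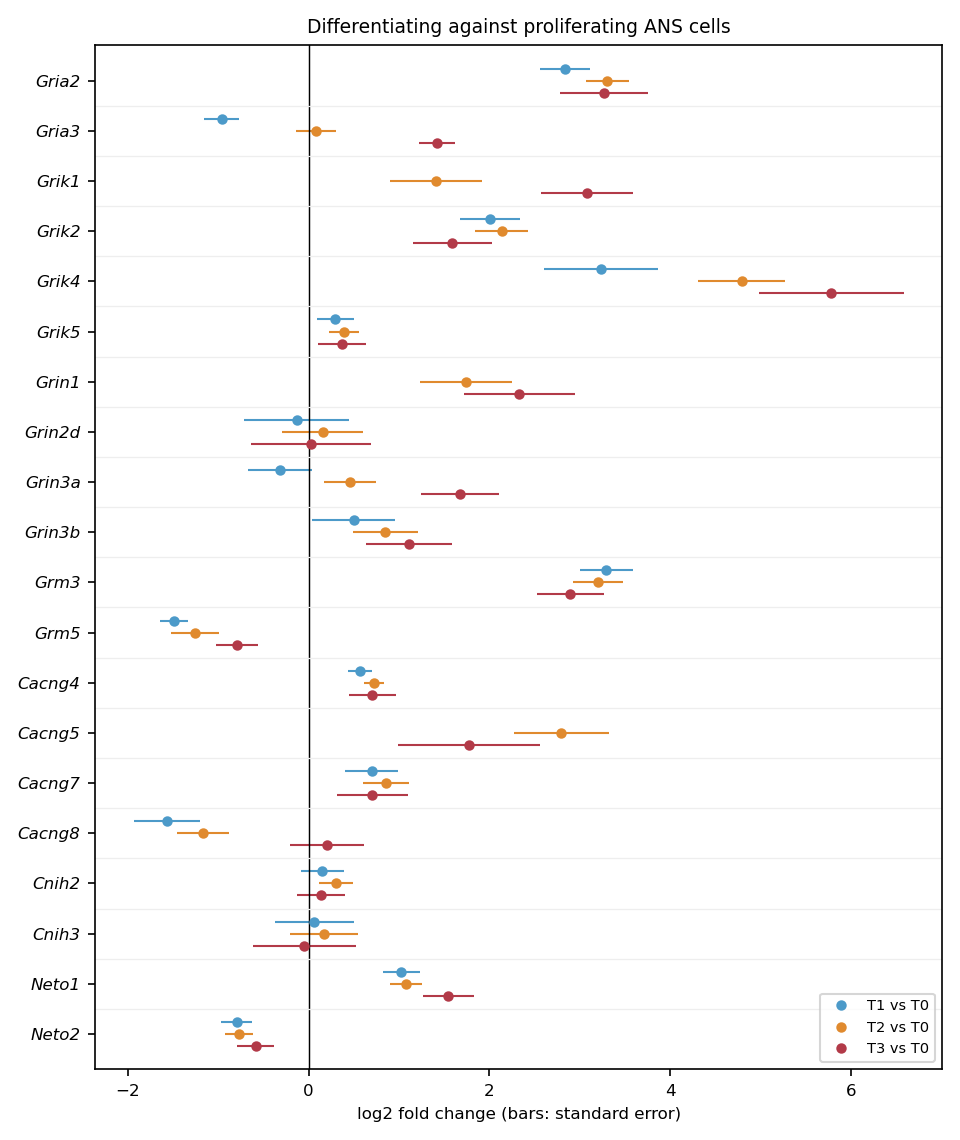
Fitted log2 fold change from T0 (horizontal axis, bars are standard errors) at T1, T2 and T3 for the members that passed the filter on low counts, without Shisa9, Gria4 and Grik3, whose T0 libraries held 0 to 3 counts. Gria2, Grik4 and Grm3 have the largest positive values at T1 and T2, Grm5 and Neto2 are negative at all 3 time points, and Gria3 is negative at T1 and positive at T3. Grik4 is drawn although its T0 libraries held only 1 to 3 counts.

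Of the members, 18 passed the filter on low counts at T1, 21 at T2 and 23 at T3, each fitted with T0. With edgeR's quasi-likelihood test and p-values adjusted over all genes, 7 were called higher at T1 and 4 lower, where 15.1% and 16.8% of all genes tested were. At T2, 10 were called higher and 3 lower, beside 21.4% and 21.8% of all genes, and at T3 9 higher and 0 lower, beside 3.31% and 1.41%. At T3 2 members were lower at an unadjusted edgeR p under 0.05, and DESeq2 called 1 lower, with no share of all genes beside it. Of all 12721 genes tested there 3350 had such an unadjusted p, 1743 of them higher. Since the list was drawn up with these contrasts known, the counts are given as a description and nothing is read from them. Some members passed the filter only through the later libraries, as no T0 library reached its level. These were Shisa9 and Grik4 at all 3 time points, Grik1 and Cacng5 at T2 and T3, and Gria4 and Grik3 at T3. Grik1 and Cacng5 were further cases at T1 in the fit without T0 replicate 3. Grin1, with 10, 8 and 3 counts at T0, also needed the later libraries, where it is higher, to pass at T2 and T3. Their calls and their part in the medians support nothing. The median log2 fold change of the members that passed the filter was 0.40, 0.85 and 1.55 at T1, T2 and T3, beside -0.0082, 0.0023 and -0.015 for all genes. Without T0 replicate 3, 10 members were called higher and 4 lower at T1 (25.2% and 24.9% of all genes), 11 and 3 at T2 (26.7% and 25.3%), and 11 and 1 at T3 (9.94% and 8.49%). Cacng7 and Cnih2 at T1, Cnih2 at T2 and Grik2, Grin1 and, as lower, Neto2 at T3 were called only without it among the members tested in both fits. At T3 the counts rest on few libraries, since no member was called higher without T0 replicate 1, T0 replicate 2, T3 replicate 1 or T3 replicate 4.

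The change from medium D1 to medium B (T2 vs. T1) does not involve T0. The members were picked with earlier results of these data known, which may include this step and T3 vs. T2. Calls and p-values of members in both steps are therefore a description. Of 21 members tested, 1 was called higher, which is Shisa9, and 0 lower, beside 0.573% and 0.0565% of all 12382 genes tested with edgeR. DESeq2 called 3 higher and 0 lower, a count with no share of all genes beside it, from which nothing is read. At an unadjusted p under 0.05 edgeR had 5 higher and none lower. Of all 12382 genes 1444 had such an unadjusted p, 920 of them higher. Gria3 was higher in every T2 library than in any T1 library, at a mean of 22.0 ± 5.68 against 10.8 ± 1.58 CPM, with a log2 fold change of 1.03 ± 0.21 and an edgeR adjusted p of 0.071. Gria2 overlapped between T1 and T2 and had 0.46 ± 0.21 with an adjusted p of 0.43. Libraries with the same replicate number moved together in this step. With the replicate number as a block, Gria3 had 1.16 with an adjusted p of 0.026 and Gria2 0.62 with an adjusted p of 0.042, and 2 members were called higher and 0 lower, beside 1.51% and 0.476% of all genes. The call for Shisa9 was lost with the block and held in 5 of 13 alternatives. That for Gria3 also depends on the fit, and its adjusted p ranged from 0.00051 to 0.29 over the alternatives. Grik4, at 4.19 ± 1.41 against 1.44 ± 0.788 CPM, had 1.56 ± 0.39 with an adjusted p of 0.13, and Grin1 1.44 ± 0.46 with 0.24. Grm3, Grm5, Grik2, Grik5, Neto1 and Neto2 had log2 fold changes between -0.11 and 0.22 with adjusted p from 0.75 to 0.98.

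Over the longer stay in medium B (T3 vs. T2) the members called were the AMPA subunits Gria3 and Gria4. Gria4 and Grik3 passed the filter on low counts only through the T3 libraries, where they are high, so their call or p is a description and supports nothing. Gria4 went from 0.463 ± 0.196 CPM (SD, n = 4) at T2 to 37.7 and 9.15 CPM at T3, with a log2 fold change of 5.60 ± 0.58 and an edgeR adjusted p of 0.016. Gria3 rose from 22.0 ± 5.68 to 55.6 ± 1.72 CPM, with 1.34 ± 0.21 and an adjusted p of 0.039. Neither gene overlapped between T2 and T3. These 2 were called higher and 0 lower of 23 members tested, beside 0.5% and 0.691% of all 12599 genes. At an unadjusted p under 0.05 edgeR had 6 members higher and 2 lower. Of all 12599 genes 2144 had such an unadjusted p, 1190 of them higher. DESeq2 called 5 members higher and 0 lower, a count with no share of all genes beside it, from which nothing is read. The call for Gria3 was lost without T2 replicate 2 (adjusted p = 0.079), replicate 3 (0.10) or replicate 4 (0.10), and that for Gria4 without T2 replicate 2 (0.054) or replicate 4 (0.076). With the replicate block, where the T3 numbers meet T2 in 2 pairs, Gria4 had 5.12 with an adjusted p of 0.031 and Gria3 1.37 with 0.11. The size for Gria4 turned on which T3 library was used, as its log2 fold change was 4.25 ± 0.40 without T3 replicate 1 and 6.27 ± 0.29 without T3 replicate 4, fits in which the lone T3 library is assumed to vary like the others.

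The other members missed the threshold in this step. Cacng8, with 4.28 ± 0.954 against 1.65 ± 0.238 CPM, had 1.37 ± 0.29 and an adjusted p of 0.059. Grik3 had 3.10 ± 0.72 with 0.074, Grik1 1.68 ± 0.43 with 0.092 and Grin3a 1.23 ± 0.37 with 0.14. In each of these 4 the T3 libraries lay above all T2 libraries, which was not set beside all genes. Grik2 and Cacng5 lay below T2 in both T3 libraries, with -0.54 ± 0.20 (adjusted p = 0.22) and -1.01 ± 0.34 (adjusted p = 0.18). Gria2, Grm3 and Cacng4 had values of -0.04 ± 0.37, -0.30 ± 0.23 and -0.02 ± 0.19, and the T3 libraries were on either side of T2 or overlapped with it. Gria2, Gria4, Grik3, Grik4 and Grin3a were higher in T3 replicate 1 than in T3 replicate 4, and Grm5 and Cacng8 were lower. T3 replicate 1 also had more of the neuronal marker Dcx (550.2 against 271 CPM) and of Pdgfra (229 against 67.5 CPM) than T3 replicate 4, and less of the proliferation marker Mki67 (197 against 312 CPM). The summed proliferation markers were higher at T3 than at T2 in every library, with a median log2 fold change of 1.64. The part of these differences in the results for T3 was not tested.

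**Figure D4:**
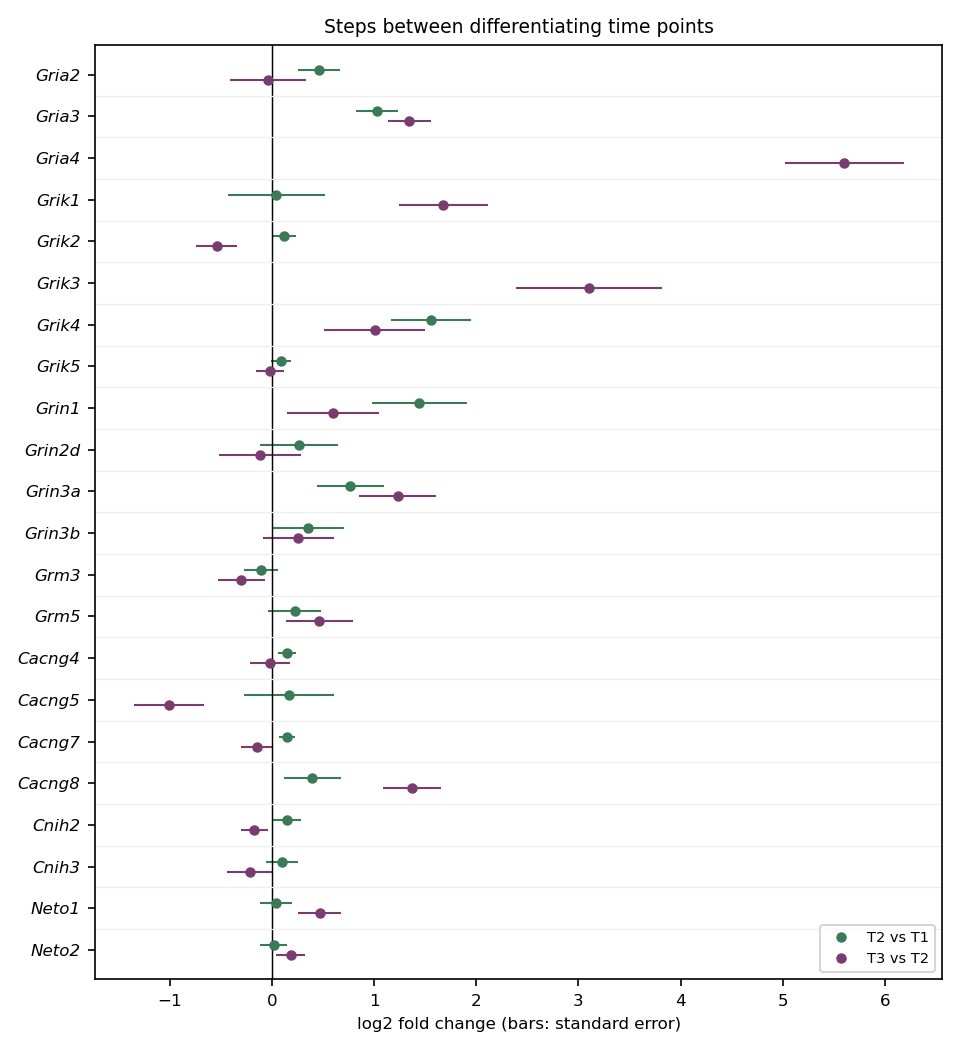
Fitted log2 fold change (horizontal axis, bars are standard errors) for T2 vs. T1 and T3 vs. T2 in the members tested, without Shisa9. Gria4 at 5.60 and Grik3 at 3.10 stand out in T3 vs. T2, and most members lie within 1 unit of 0 in both steps.

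Proteins that hold glutamate receptors at the membrane and supply or clear glutamate were counted from lists drawn up with earlier results known. Of 20 scaffold genes tested, 5 passed as higher and 1 as lower at T1 and 9 and 2 at T2, and of 21 tested 5 passed as higher at T3, with a median log2 fold change of 0.31, 0.25 and 0.35. Over all genes 15.1% and 16.8% passed at T1, 21.4% and 21.8% at T2 and 3.31% and 1.41% at T3. Without T0 replicate 3 the scaffold counts were 9 and 1, 12 and 2, and 8 and 1. Over all genes that fit called 25.2% and 24.9% at T1, 26.7% and 25.3% at T2, and 9.94% and 8.49% at T3. At T3 the higher scaffold count ran from 0 to 9 over the alternatives. Lin7a, which links receptors to the cytoskeleton through PDZ contacts, was 2.39 ± 0.376 CPM at T0 and 12.3 ± 2.31 at T2 (log2 fold change 2.38 ± 0.23, or 2.51 ± 0.24 without T0 replicate 3), and Dlgap1, a partner of PSD-95, went from 0.748 ± 0.477 to 3.27 ± 0.631 (2.14 ± 0.46, or 1.70 ± 0.30). Dlg4, which encodes PSD-95 itself, was lower, at 199 ± 17.5 against 105 ± 13.6 CPM (-0.90 ± 0.13, or -0.98 ± 0.11), as was Lin7c at -0.45 ± 0.13, or -0.27 ± 0.07. In the steps between later time points Dlgap1 and Shank2 passed as higher at T2 vs. T1, and Dlgap1 at T3 vs. T2.

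Of 13 genes for glutamate transport and metabolism tested with T0, 1 passed as higher and 3 as lower at T1, 2 and 4 at T2, and 1 as higher at T3, with a median log2 fold change of -0.07, -0.13 and -0.06. These counts are near the shares over all genes. Leaving out T0 replicate 3 gave 1 and 7, 3 and 7, and 1 and 4. In that fit the shares over all genes were 25.2% and 24.9% at T1, 26.7% and 25.3% at T2, and 9.94% and 8.49% at T3. The lower counts were then above these shares. Slc1a6 (EAAT4, a glutamate transporter of Purkinje cells) was 0.620 ± 0.136 CPM at T0 and 3.78 ± 0.809 at T2 (2.60 ± 0.31, or 2.78 ± 0.34 without T0 replicate 3). Gls2, a glutaminase, and Slc38a2, a glutamine carrier, were lower at T2 by -1.12 ± 0.27 and -0.98 ± 0.12, or -0.92 ± 0.26 and -0.86 ± 0.09. Slc17a6, the vesicular glutamate transporter VGLUT2, had 0 counts in all 12 libraries. Of the secreted and assembly partners, 3 of 11 tested passed as higher at T1 and 1 as lower, and of 12 tested 5 and 1 at T2 and 1 higher at T3, with a median of -0.06, 0.22 and 0.51. With T0 replicate 3 left out these counts were 4 and 3, 6 and 2, and 4 and 1, beside the shares over all genes given above for that fit. Olfm3, a secreted protein found with AMPA receptors, was 0.356 ± 0.248 CPM at T0 and 10.5 ± 3.61 at T2 (4.86 ± 0.47, or 4.47 ± 0.46 without T0 replicate 3), and the AMPA receptor partner Shisa7 went from 18.4 ± 9.51 to 104 ± 18.6 (2.52 ± 0.38, or 2.15 ± 0.18). Nptx1, a pentraxin that clusters AMPA receptors, was lower at T2 by -1.05 ± 0.29, or -0.53 ± 0.11 without T0 replicate 3, which had 662 CPM against 295 and 284 in the other T0 libraries.

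Marker genes of the cell types the culture could hold were read beside these values. Of 11 pan-neuronal markers, of which 6 to 9 were tested, 4 passed as higher and 1 (Elavl4) as lower at T1, 6 as higher at T2 and 2 at T3, beside the same shares over all genes. Dcx was at 5.57 ± 3.37 CPM at T0 and 218 ± 24.2, 368 ± 52.2 and 411 ± 198 at T1, T2 and T3, and Elavl3 at 2.48 ± 1.97 CPM at T0 and 17.1 ± 1.54 at T2. Their log2 fold changes at T2 were 6.06 ± 0.47 and 2.80 ± 0.60, or 5.64 ± 0.19 and 2.25 ± 0.16 without T0 replicate 3. Rbfox3 and Snap25 also passed at T2 (4.92 ± 0.63 and 3.55 ± 0.62), at no more than 2.31 and 3.09 CPM. Nefm was at 0 counts in all libraries and Stmn2 at no more than 1. Of the 8 GABAergic markers, Gad1 passed as higher at all 3 time points (2.68 ± 1.43 CPM at T0 and 50.3 ± 5.57 at T2), while Gad2, Slc32a1 and Dlx6 had at most 1 count in every library and Dlx5 had 0, so that these defining markers of GABAergic neurons were absent or nearly so at T3 as well. The 8 glutamatergic neuron markers summed to 12.7 to 16.7 CPM in the libraries up to T2 and to 20.7 and 21.0 CPM in those of T3, and Neurod1 passed as higher at T3 vs. T2.

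Glial and progenitor markers were abundant. The 12 oligodendrocyte lineage markers summed to 3545 to 3805 CPM at T0, 4325 to 4922 CPM at T1 and T2 and 5384 to 6286 CPM at T3, mostly from Olig1 and Olig2, and Pdgfra, the receptor that defines oligodendrocyte precursors, was at 30.1, 27.2 and 3.67 CPM in the T0 libraries and at 163 ± 18.4 CPM at T2 (3.02 ± 0.58, or 2.52 ± 0.13 without T0 replicate 3). Sox10, a factor of the whole lineage, was at 3.38, 2.65 and 0.705 CPM at T0 and at 0.108 to 0.669 CPM later, and Enpp6 at 1.28, 1.88 and 0.353 CPM at T0 and at most 0.215 CPM later. Neither passed the filter for T2 vs. T0, and Nkx2-2 had at most 1 count. The 10 astrocyte markers summed to 3092 to 5534 CPM at T0 and 2992 to 4673 CPM later, with Sox9 passing as higher at T1 and T2 (1.08 ± 0.32 at T2, or 0.73 ± 0.11 without T0 replicate 3), Fgfr3 as lower at both (-1.64 ± 0.35 at T2, or -2.01 ± 0.12) and Aldh1l1 as lower at T2 (-1.11 ± 0.37, or -1.42 ± 0.25). The 8 progenitor markers summed to 5417 to 7473 CPM at T0 and 5007 to 7182 CPM later, with Hes5 (-1.81 ± 0.30, or -2.10 ± 0.17) and Vim (-0.57 ± 0.12, or -0.61 ± 0.11) lower at T2. The proliferation markers Aurkb (-3.41 ± 0.31, or -3.04 ± 0.20) and Bub1 (-3.36 ± 0.33, or -3.05 ± 0.24) were lower at T2. Microglial markers summed to at most 0.646 CPM, with C1qa and C1qb at 0, and endothelial and mural markers to at most 3.98 CPM, with Pdgfrb at 0. The part of these markers in the receptor values was not tested.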

How the data were processed

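PolyA RNA of 12 cultures was made into libraries with a TruSeq kit and sequenced on a HiScanSQ. The authors aligned reads to mm9 and counted them per gene; the labels name CASAVA 1.8, TopHat2 2.0.6, Bowtie 0.12.7.0, HTSeq 0.6.0 and DESeq2 1.0.0 for the processing. The deposited counts are whole reads per gene for 22609 genes, without normalization. Per library 8910724 to 16631614 reads were on genes (median 12601200), and 5 entries that name no gene were left out. Reads outside any gene made up 13.3% to 24.1% and ambiguous reads 0.680% to 0.903% of these and the reads on genes, and alignments without a unique place 26.0% to 39.0% of all entries. Such alignments were not counted on genes, which lowers genes with near-identical copies. The strand setting is not given in the sources used here. The deposited FPKM values (34993 genes) were normalized by the authors to length and depth with a tool not given in the sources used here. No column of authors' comparisons was used.

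Groups came from the sample titles. Some items are not reported here. The members and all lists were chosen with earlier results of these data known. CPM values were scaled with TMM factors (0.932 to 1.04) over all 12 libraries. Each contrast was fitted to the libraries of its groups with edgeR 4.0.16 (R 4.3.3; filterByExpr, TMM, quasi-likelihood F test, two-sided) with Benjamini-Hochberg adjustment over all genes tested and a threshold of 0.05, after the steps were tested on simulated data. The study's own methods name DESeq2, which is an alternative here (1.42.0). The SE is the log2 fold change divided by the square root of F. The p-values measure the spread between these libraries. Contrasts with T0 and every value of Shisa9 were known when members were chosen, so no p is given for members there. Whether T2 vs. T1 and T3 vs. T2 were known too is not established, so the p-values given for them are a description. Named are all members, and from each other list up to 2 genes per direction with the largest changes at T2 among called genes whose mean log2 CPM was 1 or more; Elavl4, Mki67, Top2a, Neurod1, Rbfox3, Shank2, Snap25, Sox10, Enpp6 and genes at or near 0 counts were named after their values were seen.

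The alternatives were DESeq2, RLE size factors, no filter, a fit of all 12 libraries, replicates 1 and 2 only, a replicate block and leaving out each library. Replicate numbers come from the titles. Deviations from the group mean in T2 and T1 libraries of the same number correlated at 0.199, 0.341 and 0.165 over genes for replicates 1, 2 and 3, so blocked values stand beside that contrast. Intervals and the floor of 3 counts cover counting error only. Sequences were read from NCBIM37 with GENCODE vM1, which also gave the merged exon lengths. Figures used matplotlib 3.10.9.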

Additional observations from a re-analysis of the deposited data

Results flagged for a closer look

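In 23 members with 4 T2 libraries each, the highest or lowest library was set against the other libraries, a comparison that by chance marks about 1 group in 20. It marked 2 groups. Grm3, the Gi/o-coupled receptor mGlu3, stood at 309.6 CPM in T2 replicate 2, and the gap to the nearest library was 0.853 of the range of the 4 libraries, above the critical value for 4 values at the 95% level. Neto2, an auxiliary subunit of kainate receptors, stood at 150.3 CPM in T2 replicate 4, the lowest of the 4, with a gap of 0.860 of the range. The other T2 libraries lay between 203 and 218 CPM for Grm3 and between 196 and 203 CPM for Neto2. What sets these libraries apart for these genes was not tested.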

How the results depend on the processing

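No called member changed direction under any alternative run, and of the alternative values of called members 310 stayed on their side of the threshold and 59 lost it. Against T0 at T1, 11 members were higher with replicates 1 and 2 only, and the lower count ranged from 2 to 4, being 2 without T1 replicate 1, 2 or 3. At T3 against T0 the higher count ranged from 0 to 11 and the lower count from 0 to 1 over the fits that leave out a library, and 1 was lower with DESeq2 and with a fit of all 12 libraries. For T2 vs. T1 the higher count was 3 with DESeq2, 2 with no filter on low counts, 0 with a fit of all 12 libraries, 2 with the replicate block, 0 with replicates 1 and 2 only, and 0 to 1 over leave-outs, being 0 without T1 replicate 1 or 3 or T2 replicate 1 or 3. For T3 vs. T2 it was 5 with DESeq2, 6 with no filter, 1 with the replicate block and 0 to 4 over leave-outs (0 without T2 replicate 2 or 4, 1 without T2 replicate 3, 4 without T3 replicate 4), and the lower count was 0 to 2, with 2 without T3 replicate 1. Of the counts for the other lists under the alternatives, 256 moved by over 1.5 times and 1136 did not. The cause of these differences was not tested. Shares of all genes called are given only for the main fits, those without T0 replicate 3 and the replicate block of T2 vs. T1. The other counts of called members, those of DESeq2 included, stand without such a share.

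In T2 vs. T1 every T2 library with a T1 library of its number correlated best with that one. In T1 vs. T0 the same-number correlations were -0.018, 0.121 and 0.065, and in T2 vs. T0 -0.064, 0.016 and -0.151. In T3 vs. T2 they were -0.015 and 0.258. Some of these libraries, such as T3 replicate 4, also matched their own number best and others did not. Pairing in these contrasts is therefore neither shown nor excluded. The block moved no count of members in them by over 1.5 times except that for T3 vs. T2. T3 and T0 share only replicate 1, so no paired fit was possible. That pair correlated at 0.403, and T0 replicate 2 was the closer match.

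On CPM per kilobase, a scale chosen after seeing the data, the Gria2 share at T0, T1, T2 and T3 was 66.1%, 96.4%, 94.7% and 79.0%, that of Grik5 90.1%, 73.0%, 71.9% and 76.3%, that of Cacng4 42.8%, 45.6%, 45.3% and 43.5%, and that of Grm3 at T0 29.1%. Without T0 replicate 3 the T0 shares on FPKM were 40.0% for Gria2, 77.0% for Grik5, 26.3% for Grm3 and 64.5% for Cacng4. Depth limits the members with single counts, whose differences were not detectable at this depth.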
